A study of Mus musculus with 12 samples.

Results

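The genes described here control the fate of pyruvate and lactate in heart muscle cells. They are the 4 pyruvate dehydrogenase kinases (Pdk1, Pdk2, Pdk3 and Pdk4), the catalytic subunits of both pyruvate dehydrogenase phosphatases (Pdp1 and Pdp2) and the lactate carriers Slc16a1 (MCT1) and Slc16a3 (MCT4). They were taken by symbol, and all 8 were found among the 24421 genes counted in each library. All 8 passed the filter on low counts, which left 12252 genes in the tests.

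The libraries were made from cardiomyocytes of CD1 mice at postnatal day 1. Glut1 transgenic hearts carried human GLUT1, a glucose transporter, under the αMHC promoter, which is active in cardiomyocytes. They also carried an αMHC-Cre transgene and 1 copy of the R26 YFP reporter, so that sorted cells were marked by YFP. WT hearts lacked the GLUT1 transgene, and the design text gives them the same Cre and YFP alleles. Cells of each heart were sorted by Mitotracker signal. The labels name only this signal, and the study's text pairs high Mitotracker with Tnnt2low and low Mitotracker with Tnnt2high cardiomyocytes. Each population had 4 Glut1 transgenic libraries, from 4 hearts that gave both populations, and 2 WT libraries. Hearts are numbered here by the replicate number of their libraries, not by the heart numbers of the labels. The labels start both WT sample numbers with 1 shared heart number, so the WT libraries may come from 1 heart, and p-values then measure a spread that may be partly technical.

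Pyruvate dehydrogenase turns pyruvate into acetyl-CoA in mitochondria, and it is the gate through which glucose carbon enters the tricarboxylic acid cycle. The kinases phosphorylate the enzyme and switch it off, and the phosphatases remove the phosphate and switch it on again. Around birth the heart turns from glucose and lactate towards fatty acids, and Pdk4 is known as the kinase that fatty acids, fasting and glucocorticoids raise, while Pdk1 is a classical target of the hypoxia-inducible factor. Slc16a1 carries lactate and ketone bodies in oxidative cells such as cardiomyocytes, whereas Slc16a3 exports lactate from glycolytic cells.

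Libraries held 4065306 to 9815069 reads in genes. The count of mouse Slc2a1, which encodes Glut1, was 33.5 to 92.5 CPM (gene reads scaled to a common library size with the TMM factors of edgeR) in the 8 Glut1 transgenic libraries and 13.3 to 28.9 CPM in the 4 WT libraries, without overlap. Reads were mapped to the mouse genome, and whether those counted here came from the human transgene or the mouse gene was not tested. Tnnt2 was lower in Tnnt2low than in Tnnt2high cells of Glut1 transgenic hearts (12661 to 13976 CPM against 16086 to 20830 CPM), and the WT values were 15741 to 16731 CPM and 16254 to 17201 CPM. The 7 cardiomyocyte markers summed to 102338 to 127162 CPM in every library, but single markers moved in both directions. Between the Glut1 transgenic populations, 4 were called lower in Tnnt2low cells, Tnnt2, Tnni3, Myl2 and Myl3 (log2 fold changes -0.42, -0.82, -0.91 and -0.86). Ryr2 was called higher (0.61). Leukocyte markers summed to at most 9.89 CPM. The 8 erythroid markers summed to at most 3.84 and 2.42 CPM in Glut1 transgenic Tnnt2low and Tnnt2high libraries and at most 26.1 and 4.28 CPM in WT, and the 4 globin genes on this list were listed at 0 in all libraries while other erythroid genes had reads in every group. Fibroblast markers summed to 46.4 to 99.8 CPM in Glut1 transgenic Tnnt2low and 149 to 898 CPM in Tnnt2high libraries, and endothelial markers to 8.60 to 73.5 CPM and 28.9 to 235 CPM. Between these populations 5 of 8 fibroblast and 0 of 8 endothelial markers were called lower in Tnnt2low cells, and with the replicate block 5 and 7. In WT the fibroblast sums were 107 to 152 and 103 to 465 CPM, and the endothelial sums 13.3 to 83.4 and 16.2 to 336 CPM. Smooth muscle and pericyte markers summed to 1368 to 1603 CPM in Glut1 transgenic Tnnt2low and 1453 to 1930 CPM in Tnnt2high libraries. The WT sums were 1374 to 1555 and 1516 to 1651 CPM. Of the 7 tested, Pdgfrb and Notch3 were called lower in Glut1 transgenic Tnnt2low cells and Abcc9 higher. With the replicate block 4 were lower and 1 higher. Reads outside all exons numbered 0.962 ± 0.076 per gene read (SD, n = 4) in Glut1 transgenic Tnnt2low and 2.38 ± 0.17 (SD, n = 4) in Tnnt2high libraries, against 1.31 ± 0.26 and 1.67 ± 0.23 (SD, n = 2 each) in WT. Both libraries of Glut1 transgenic hearts 2 and 4 held Y-linked reads (673 to 1426), and the other 8 libraries, all WT libraries among them, held at most 5, so Y-linked reads go with genotype in part. The part of these differences in the results below was not tested, except where values without hearts 2 and 4 are given.

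The promoters of Pdk1, Pdk3 and Pdk4 are shown because the results turn on these 3 kinases. Each is given from 250 bases before to 50 bases after the start of the RefSeq transcript, on the strand of the gene (RefSeq, GRCm38.p6). Capitals mark the words ACGTG and GCGTG on either strand, which are the letters of the core that hypoxia-inducible factors bind. Pdk1 lies at chr2:71872974-71873273 on the plus strand, Pdk3 at chrX:93832101-93832400 on the minus strand and Pdk4 at chr6:5496229-5496528 on the minus strand.
Pdk1: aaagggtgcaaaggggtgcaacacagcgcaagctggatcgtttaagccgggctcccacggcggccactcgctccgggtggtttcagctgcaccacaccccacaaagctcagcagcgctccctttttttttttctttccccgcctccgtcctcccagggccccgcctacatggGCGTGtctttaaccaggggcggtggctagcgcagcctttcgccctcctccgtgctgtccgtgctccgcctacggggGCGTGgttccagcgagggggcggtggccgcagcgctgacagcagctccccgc
Pdk3: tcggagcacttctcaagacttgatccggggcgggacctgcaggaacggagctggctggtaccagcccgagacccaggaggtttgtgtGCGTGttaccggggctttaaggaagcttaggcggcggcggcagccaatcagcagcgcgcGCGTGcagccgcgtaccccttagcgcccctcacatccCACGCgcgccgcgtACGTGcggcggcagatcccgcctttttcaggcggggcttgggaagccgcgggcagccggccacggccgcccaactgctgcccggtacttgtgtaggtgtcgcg
Pdk4: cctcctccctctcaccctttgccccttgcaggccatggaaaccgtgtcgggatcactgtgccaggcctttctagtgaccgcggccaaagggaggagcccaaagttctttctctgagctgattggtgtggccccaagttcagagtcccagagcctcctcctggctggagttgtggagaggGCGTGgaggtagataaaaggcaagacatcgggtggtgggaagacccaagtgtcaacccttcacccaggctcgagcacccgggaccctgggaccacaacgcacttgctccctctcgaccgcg
The Pdk1 promoter holds GCGTG 2 times and Pdk4 holds it 1 time, neither with ACGTG. The Pdk3 promoter holds ACGTG 1 time and GCGTG 3 times. Of 32851 mouse promoters of this length, 19.6% hold ACGTG, 32.4% hold GCGTG and 43.8% hold either, so the words are common and mark no site. Where ACGTG is read as part of CACGTG it matches on both strands. Of the 8 genes, 7 matched the promoter table (Pdp1 did not), and each of the 7 held at least 1 of these words at its first listed start. Pdk1 and Pdk2 each have a further listed start, not shown here, whose promoter holds neither word.

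The 4 kinases were not expressed equally. To compare genes, CPM was divided by the exon length of the gene in kilobases (GENCODE, all isoforms merged). Pdk4 had the highest level with a mean of 119.8 CPM per kb over the 12 libraries, followed by Pdk2 with 93.0 CPM per kb, and their ranges overlapped (71.7 to 182 and 85.1 to 105 CPM per kb). Slc16a1 came next at 58.1 CPM per kb, and its range of 44.3 to 70.6 touched that of Pdk3 (26.7 to 46.0 CPM per kb, mean 36.3). Pdk1 stood at 21.0 CPM per kb and Pdp1 at 11.2 CPM per kb, and neither range met that of a neighbour. Pdp2 (1.55 CPM per kb) and Slc16a3 (1.10 CPM per kb) were the lowest members and overlapped.

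Pdk4 and Pdk2 therefore made up most of the kinase messages per length. In Glut1 transgenic Tnnt2low cells, Pdk4 took 46.3% ± 7.4, Pdk2 33.8% ± 4.5, Pdk3 11.4% ± 1.5 and Pdk1 8.56% ± 1.66 of the sum (SD, n = 4). In Glut1 transgenic Tnnt2high cells the shares were 42.5% ± 5.7, 34.8% ± 2.3, 15.9% ± 3.1 and 6.79% ± 0.61 (SD, n = 4). WT libraries gave Pdk4 44.1% ± 3.7 in Tnnt2low and 40.3% ± 10.8 in Tnnt2high cells (SD, n = 2 each). Isoforms of unequal use can change these shares, since the length counts every annotated exon. The sum of the kinases was 21.2 ± 4.4, 21.0 ± 7.0, 23.9 ± 6.3 and 23.8 ± 12.8 times that of the phosphatases in Glut1 transgenic Tnnt2low, Glut1 transgenic Tnnt2high, WT Tnnt2low and WT Tnnt2high cells (SD, n = 4, 4, 2 and 2), and these groups overlapped.

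**Figure D1:**
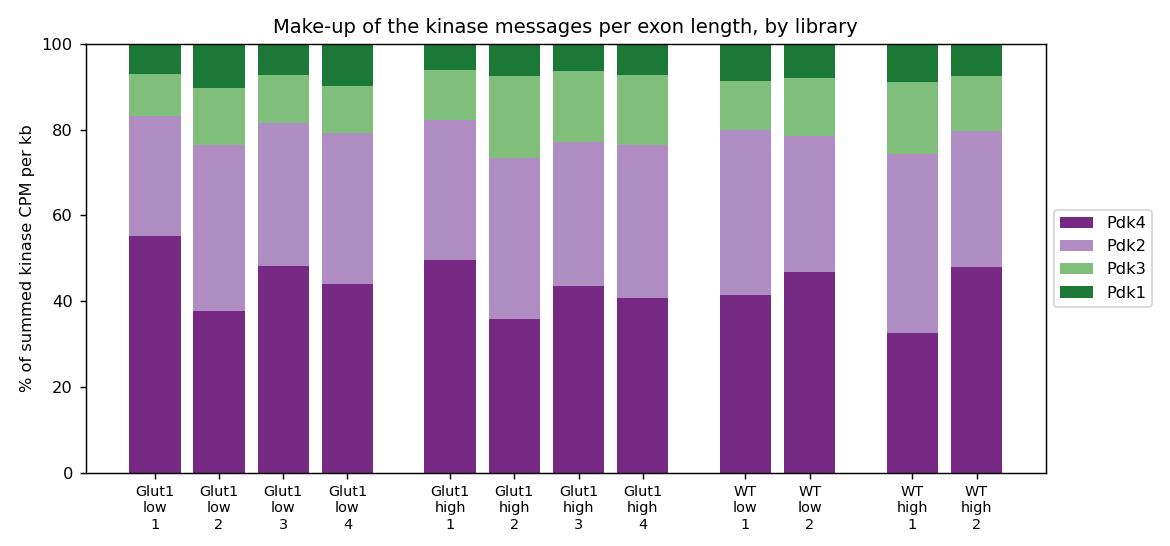
Share of each kinase in the summed kinase level (percent of CPM per kb of exon) for each of the 12 libraries, with Glut1 for Glut1 transgenic, low and high for Tnnt2low and Tnnt2high, and the replicate number below. Pdk4 and Pdk2 are the largest parts in every library, and the Pdk4 part runs from 32.6% in WT Tnnt2high replicate 1 to 55.2% in Glut1 transgenic Tnnt2low replicate 1.

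The first comparison asked whether Tnnt2low and Tnnt2high cells of the Glut1 transgenic heart differ in these genes. Pdk1 was higher in Tnnt2low cells by 1.28-fold and was the only member that passed the test, which was edgeR's quasi-likelihood test with Benjamini-Hochberg adjustment at 0.05. Pdk3, an isoform known for its low sensitivity to inhibition by pyruvate, stood on the other side at 0.741-fold and narrowly missed it. The remaining members did not pass. The background was broad, since 16.7% of the 12252 genes were called, 8.42% higher and 8.33% lower in Tnnt2low cells, so 1 of 8 members is near the share of all genes. The median log2 fold change was 0.07 over the members and -0.01 over all genes.

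**Figure D2:**
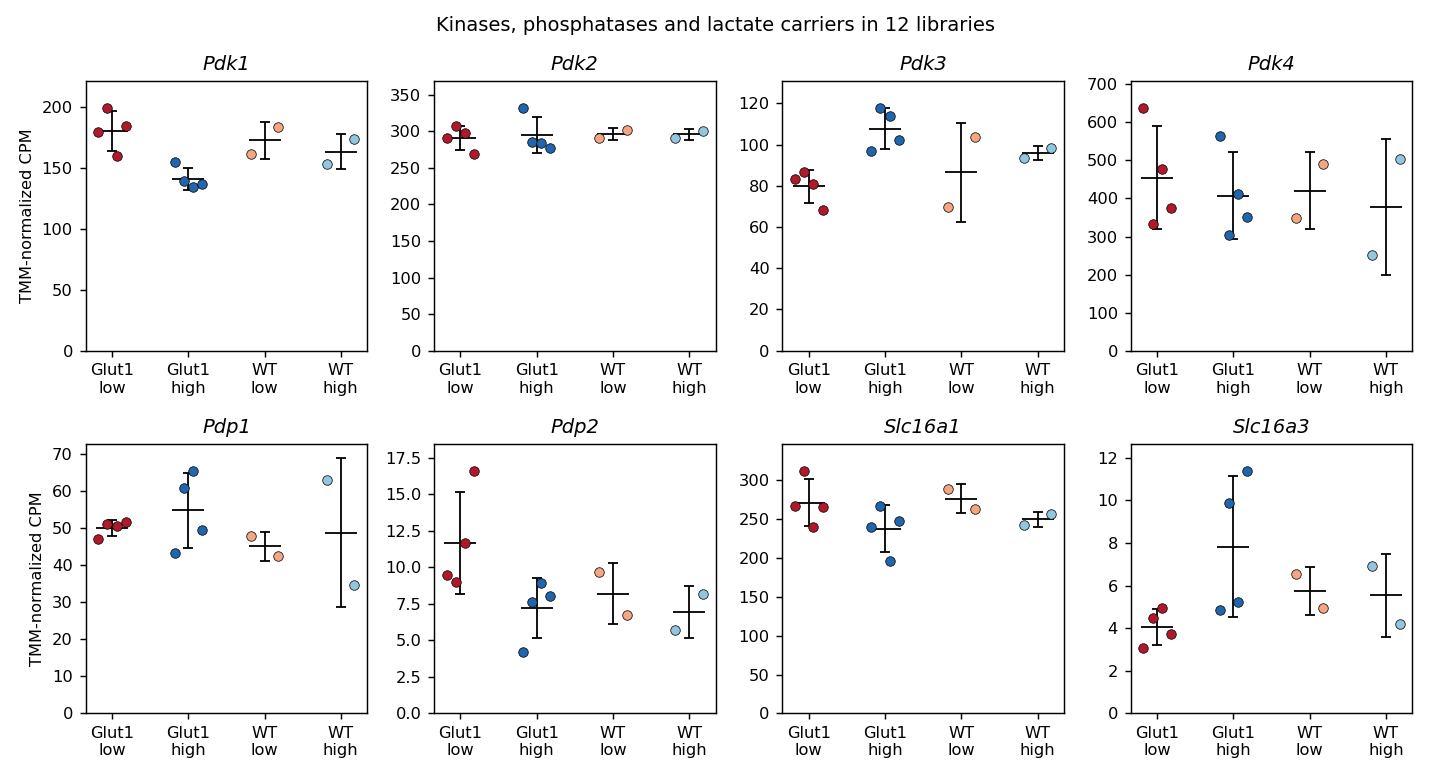
TMM-normalized CPM of each member (y axis, from 0, a scale of its own per gene) in the 4 groups (x axis), with 1 point per library and the mean ± SD as a black bar (n = 4 for Glut1 transgenic and n = 2 for WT). Pdk1 and Pdk3 separate the Glut1 transgenic populations in opposite directions, Pdk2 keeps to 269 to 332 CPM, and Pdk4 spreads widely within every group.

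Pdk1 lies on chromosome 2 (71873224 to 71903858, mm10, plus strand) and has 7.779 kb of exon. Its level was 179, 199, 159 and 184 CPM in Glut1 transgenic Tnnt2low replicates 1 to 4 and 154, 139, 134 and 137 CPM in the Tnnt2high cells of the same hearts. Every Tnnt2low library was above every Tnnt2high library, and the WT values of 162 and 183 CPM in Tnnt2low and 153 and 173 CPM in Tnnt2high cells overlapped. The fitted log2 fold change in Glut1 transgenic cells was 0.35 (SE 0.12, edgeR adjusted p = 0.0474), with a 95% interval of 1.08- to 1.51-fold.

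Pdk3 lies on the X chromosome (93764607 to 93832201, mm10, minus strand) and has 2.561 kb of exon. It measured 83.1, 86.5, 81.1 and 68.4 CPM in Glut1 transgenic Tnnt2low and 96.9, 118, 114 and 102 CPM in Tnnt2high replicates 1 to 4, again without overlap, and in the opposite direction to Pdk1. The fitted log2 fold change was -0.43 (SE 0.14, edgeR adjusted p = 0.0514). In WT, Pdk3 measured 69.7 and 104 CPM in Tnnt2low and 93.7 and 98.3 CPM in Tnnt2high cells, with overlap.

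Both values sit at the threshold and move across it. With the heart as a block, since each heart gave both populations, the edgeR adjusted p was 0.0552 for Pdk1 and 0.0440 for Pdk3. Leaving out 1 library at a time kept the Pdk1 call for 3 of 12 libraries (Glut1 transgenic Tnnt2low replicate 3 and either WT Tnnt2high library), with an edgeR adjusted p of 0.0462 to 0.142 over all 12. Pdk3 was called only without WT Tnnt2low replicate 1 or replicate 2, and its adjusted p ranged from 0.0369 to 0.131. Transcript length moved with the comparison: genes with over 6.039 kb of exon had a median log2 fold change of 0.28 and genes under 3.427 kb one of -0.37, and Pdk1 is of the first kind and Pdk3 of the second. With an offset that levels exon length and GC content, the log2 fold changes were 0.13 for Pdk1 (edgeR adjusted p = 0.541) and -0.17 for Pdk3 (adjusted p = 0.510), no member was called, and 615 genes were called in all (227 higher and 388 lower, against 1032 and 1020 without it).

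The main kinases, Pdk2 and Pdk4, did not pass the test. Pdk2, the most widely expressed isoform, measured 291, 307, 298 and 269 CPM in Glut1 transgenic Tnnt2low and 332, 286, 285 and 277 CPM in Tnnt2high replicates 1 to 4. The groups overlapped, the fold was 0.987 and the 95% interval of 0.849 to 1.15 bounds the difference tightly. Pdk4 measured 638, 332, 477 and 374 CPM in Glut1 transgenic Tnnt2low and 564, 304, 413 and 350.5 CPM in Tnnt2high replicates 1 to 4. The fold was 1.12 with a wide interval of 0.773 to 1.61 and the groups overlapped. That interval is from the fit without the heart as a block, so it holds the spread between hearts. Within Glut1 transgenic hearts 1 to 4, Pdk4 was higher in Tnnt2low cells by 0.18, 0.13, 0.21 and 0.09 (log2). With the replicate block the log2 fold change was 0.15 and did not pass (edgeR adjusted p = 0.391).

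Among the phosphatases, Pdp2 and not the more abundant Pdp1 showed separate groups. Pdp2 measured 9.47, 8.98, 11.7 and 16.6 CPM in Glut1 transgenic Tnnt2low and 4.24, 7.67, 8.93 and 8.07 CPM in Tnnt2high replicates 1 to 4, on 21 to 130 reads per library over the whole series. The lowest Tnnt2low library was only just above the highest Tnnt2high library, and the 1.62-fold difference did not pass (edgeR adjusted p = 0.154, 95% interval 1.01 to 2.60). Pdp1, the calcium-stimulated form of muscle, measured 46.9, 51.2, 50.5 and 51.5 CPM against 43.4, 60.8, 65.5 and 49.4 CPM, and the Tnnt2low values lay inside the range of the Tnnt2high values (fold 0.915, interval 0.698 to 1.20).

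Of the lactate carriers, Slc16a1 was abundant and Slc16a3 scarce. Slc16a1 measured 267, 312, 239.85 and 266 CPM in Glut1 transgenic Tnnt2low and 240.3, 268, 196 and 247 CPM in Tnnt2high replicates 1 to 4, with overlap (fold 1.14, interval 0.952 to 1.37). Slc16a3 measured 3.06, 4.49, 4.95 and 3.71 CPM against 4.84, 9.86, 5.21 and 11.4 CPM. It was on 21 to 48 reads per library, and replicates 2 and 4 carried the high Tnnt2high values. Tnnt2high replicate 1 lay inside the Tnnt2low range, and replicate 3 was just above it. Replicates 2 and 4 are also the libraries with Y-linked reads, whose part in this difference was not tested. Its 0.520-fold difference did not pass (edgeR adjusted p = 0.108). The ratio of Slc16a1 to Slc16a3 per length was 83.2 ± 19.1 in Tnnt2low and 40.9 ± 14.8 in Tnnt2high cells (SD, n = 4), and its ranges of 58.2 to 105 and 26.1 to 59.6 overlapped slightly.

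In the Glut1 transgenic comparison Pdk1 and Pdp2 were higher in every Tnnt2low library than in every Tnnt2high library, as were 11.2% of all genes, and Pdk3 was lower throughout, as were 10.9%. For each of the 3 the two-sided exact permutation test gave p = 0.0286, the smallest that 4 against 4 libraries allow. Any groups of this size without overlap give this value, so it adds nothing to the lack of overlap, and it ignores the pairing by heart. At an unadjusted p under 0.05 there were 4 members (Pdk1, Pdk3, Pdp2 and Slc16a3), beside 31.0% of all genes. In these bulk libraries, fewer cells of a type and less RNA per cell cannot be told apart.

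The kinases Pdk1 and Pdk3 were then set against each other within each library, where scaling to library size cancels but transcript length does not. Per length, Pdk1 was 0.750 ± 0.101 times Pdk3 in Glut1 transgenic Tnnt2low and 0.436 ± 0.065 times in Tnnt2high cells (SD, n = 4), and 0.673 ± 0.128 and 0.559 ± 0.031 times in WT (SD, n = 2). The Glut1 transgenic ranges were 0.647 to 0.885 and 0.388 to 0.525, and the WT ranges were 0.582 to 0.763 and 0.537 to 0.581. The Glut1 transgenic ranges could not overlap, since Pdk1 was higher and Pdk3 lower in every Tnnt2low library. Their separation therefore adds nothing to the values of the 2 genes. On the log2 scale the Glut1 transgenic populations differed by 0.79, while with the offset the separate log2 fold changes were 0.13 for Pdk1 and -0.17 for Pdk3. The ratio was formed after both genes had been seen to move and has no test.

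The same question in WT cells gave no called member and no called gene (0% of 12252; DESeq2 called 3 genes, none a member). At an unadjusted p under 0.05 there were 0 members and 3.11% of all genes. Slc16a1 was the only member whose groups did not overlap, with 289 and 263 CPM in WT Tnnt2low and 243 and 256 CPM in Tnnt2high cells, beside 15.3% of all genes that were higher and 14.9% that were lower in this way. Its fold was 1.11, with an interval of 0.857 to 1.43. The exact permutation test of 2 against 2 libraries cannot go below 0.333. Pdk1 had a fold of 1.06 (0.831 to 1.34) and Pdk3 one of 0.903 (0.670 to 1.22). Pdk2 was 291 and 302 CPM in Tnnt2low and 290.5 and 301 CPM in Tnnt2high cells, and Pdk4 was 348 and 492 CPM against 252 and 504 CPM. Pdp1 gave 47.8 and 42.3 CPM against 62.9 and 34.6 CPM, Pdp2 9.68 and 6.73 CPM against 5.70 and 8.21 CPM, and Slc16a3 6.55 and 4.94 CPM against 6.93 and 4.17 CPM, all with overlap.

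The difference between populations was compared between genotypes with an interaction term. No member and no gene passed (0% of 12252; DESeq2 called 5 genes, none a member), and 0 members and 4.52% of genes were at an unadjusted p under 0.05. The interaction was 0.27 on the log2 scale for Pdk1 (95% interval -0.15 to 0.70) and -0.28 for Pdk3 (-0.81 to 0.24), and the interval for Slc16a3 ran from -2.42 to 0.41. These intervals hold 0 and also hold differences as large as those seen in Glut1 transgenic cells. The population difference of Pdk1 was therefore not shown to differ between the genotypes.

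The libraries of each heart allow the populations to be compared within it. Pdk1 was higher in Tnnt2low cells in 6 of 6 heart labels, by 0.22, 0.52, 0.25 and 0.43 (log2) in Glut1 transgenic hearts 1 to 4 and by 0.08 in both WT pairs. Slc16a1 was also higher in 6 of 6, by 0.04 to 0.29 (log2). Of all genes, 8.99% were higher in 6 of 6 and 8.19% were lower in 6 of 6. Pdk4 and Pdp2 were higher in 4 of 4 Glut1 transgenic hearts and 1 of 2 WT pairs, and Pdk3 and Slc16a3 were lower in 4 of 4 and 1 of 2, where 20.3% of genes were higher and 19.5% lower in all 4 Glut1 transgenic hearts. Pdk2 and Pdp1 had mixed signs.

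**Figure D3:**
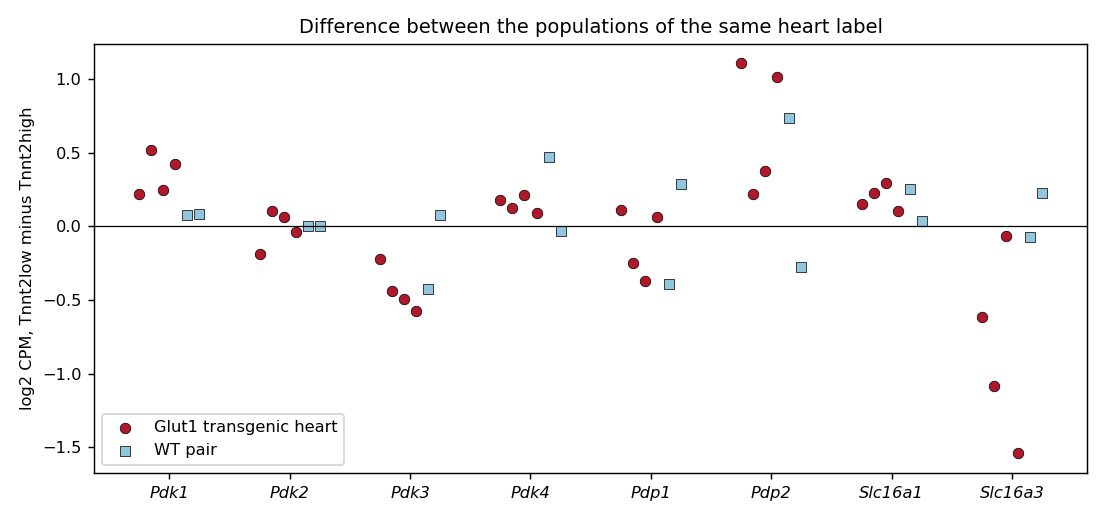
Difference in log2 CPM between the Tnnt2low and the Tnnt2high library of the same heart label (y axis) for each member (x axis), with red circles for the 4 Glut1 transgenic hearts and blue squares for the 2 WT pairs. Pdk1 and Slc16a1 lie above 0 in all 6, Pdk3 and Slc16a3 lie below 0 in the 4 Glut1 transgenic hearts, and Slc16a3 reaches -1.54 in heart 4.

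The second question was whether the GLUT1 transgene changed the members. In Tnnt2low cells no member was called, and none was at an unadjusted p under 0.05, beside 2.09% of all genes. The only gene called (0.00816% of 12252) was Hist1h2bj, a histone H2B gene that is named because it was alone, after its value was seen. DESeq2 called 6 genes, none a member. In Tnnt2high cells no gene was called (0%; DESeq2 called 5, none a member), and 0 members and 5.31% of genes were at an unadjusted p under 0.05. Glut1 transgenic and WT libraries overlapped for all 8 members in both populations. Of all genes, 5.39% were higher and 6.02% lower without overlap in Tnnt2low cells, and 5.90% and 6.12% in Tnnt2high cells.

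The intervals differ in what they allow. For Pdk2 the fold of Glut1 transgenic over WT was 0.983 (95% interval 0.818 to 1.18) in Tnnt2low and 0.997 (0.83 to 1.20) in Tnnt2high cells. For Slc16a1 it was 0.982 (0.787 to 1.22) and 0.952 (0.763 to 1.19), and for Pdk1 1.05 (0.850 to 1.29) and 0.865 (0.703 to 1.06). Pdk3 gave 0.921 (0.712 to 1.19) and 1.12 (0.864 to 1.45), and Pdp1 1.11 (0.797 to 1.55) and 1.13 (0.805 to 1.57). For Pdk4 the fold was 1.08 in both, with wide intervals of 0.691 to 1.70 in Tnnt2low and 0.687 to 1.69 in Tnnt2high cells. The scarce genes were the least bounded, with Pdp2 at 1.42 (0.798 to 2.53) and 1.03 (0.570 to 1.85) and Slc16a3 at 0.705 (0.357 to 1.39) and 1.41 (0.697 to 2.87). Without hearts 2 and 4, which held Y-linked reads while WT libraries held at most 1, the log2 fold change of Slc16a3 in Tnnt2high cells turned from 0.50 to -0.14 and its interaction was -0.39.

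**Figure D4:**
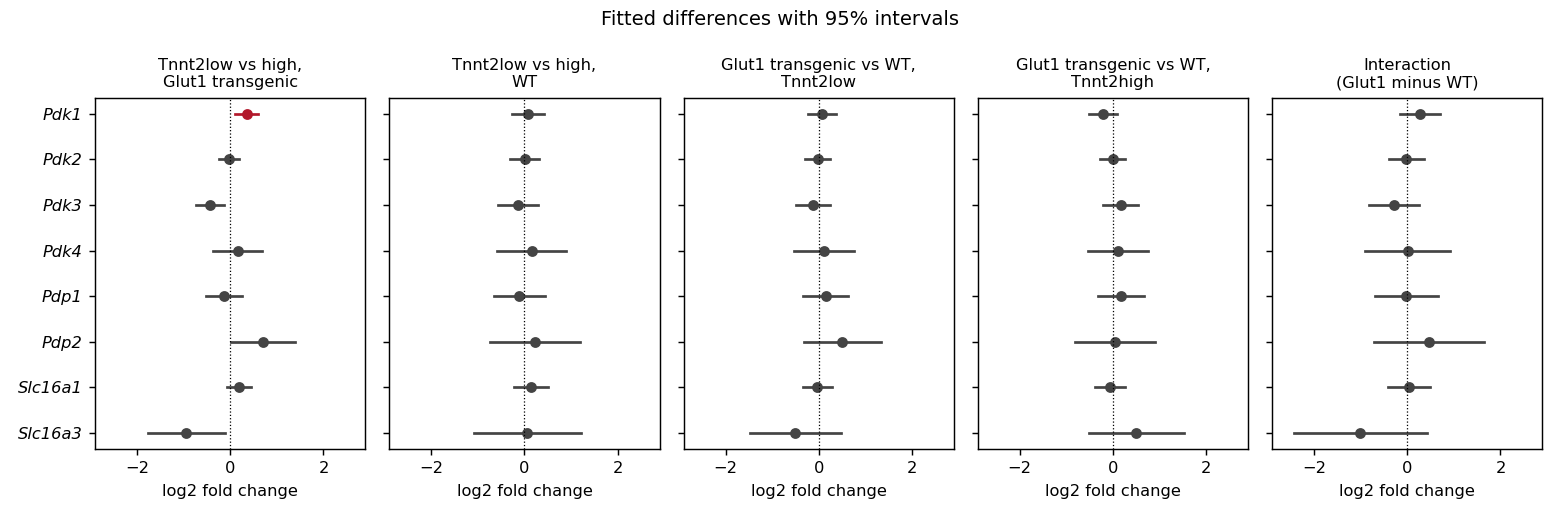
Fitted log2 fold change of each member (points, x axis) with its 95% interval (lines) in the 5 comparisons, from edgeR on all 12 libraries, with the called value in red. Only Pdk1 in the Glut1 transgenic populations is called. The intervals are widest for Pdp2 and Slc16a3, and in the genotype comparisons every interval crosses 0.

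Pdk4 had a wide range of levels, and the 4 Glut1 transgenic hearts stood in the same order in both populations. Its level ran from 252 to 638 CPM over the 12 libraries, a 2.53-fold range, while Pdk2 ran over 1.23-fold and Pdk1 over 1.48-fold. Glut1 transgenic heart 1 was the highest in both populations (638 and 564 CPM), heart 3 the next (477 and 413 CPM), heart 4 followed (374 and 350.5 CPM), and heart 2 was the lowest (332 and 304 CPM). The WT pairs, which may come from 1 heart, measured 348 and 252 CPM in pair 1 and 492 and 504 CPM in pair 2. Over all 6 labels the order was not the same, since WT pair 1 was above heart 2 in Tnnt2low and below it in Tnnt2high cells. The hearts with Y-linked reads, 2 and 4, were the lower ones of the Glut1 transgenic hearts, and the part of this in the spread was not tested. Over 6 heart labels the log2 level in Tnnt2low cells followed that in Tnnt2high cells with Pearson's r = 0.932 (exact permutation p = 0.0111, adjusted over the 8 members 0.0889) and Spearman's rho = 0.943 (exact p = 0.0167, adjusted 0.133), neither past the threshold after adjustment. Without the 2 labels farthest from the median, r was 0.926 (n = 4).

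Over all tested genes the median r between populations of a heart was 0.075, and 0.865% of genes were at or above the r of Pdk4. The next members were Slc16a1 (r = 0.788) and Pdp1 (r = 0.777), and Pdk1 gave r = 0.066. Neither Slc16a1 nor Pdp1 passed (exact permutation test, adjusted p = 0.219 and 0.194), and Spearman's rho was 0.486 for each. Without the 2 labels farthest from the median, r was -0.473 for Slc16a1 and 0.681 for Pdp1 (n = 4). The 2 libraries of a heart share the animal, the dissection and possibly the day of preparation, and which of these moves with Pdk4 was not tested. Sequence shared with other genes was low for Pdk4, with 2.74% of its 50-base words found in other transcripts, and was 0 for all other members but Pdp2 (0.142%).

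**Figure D5:**
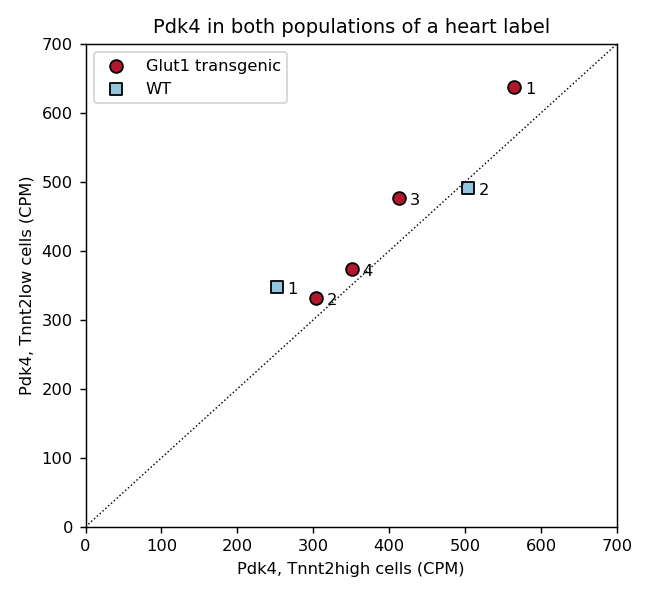
Pdk4 level (CPM) in Tnnt2low cells (y axis) against Tnnt2high cells (x axis) of the same heart label, with numbers for the replicate, circles for Glut1 transgenic, squares for WT and a dotted line of equal levels. The points rise from lower left to upper right over the range of 252 to 638 CPM, and 5 of 6 lie above the line.

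The genes whose log2 CPM ran most like each member over the 12 libraries were noted as a description, since libraries share groups and hearts. For Pdk1 they were Knstrn (a kinetochore and spindle protein, r = 0.953, rho 0.923), Sptbn1 (spectrin, r = 0.951, rho 0.951) and Parp4 (r = 0.940, rho 0.916). For Pdk4 they were Hdac5 (a histone deacetylase of heart muscle, r = 0.887, rho 0.874), Tead3 (r = 0.876, rho 0.860) and Tchh (r = 0.833, rho 0.797). Tchh was near the floor, with a mean of 0.894 CPM. Psme2b, Fopnl and Atp6v1g1 were the nearest to Pdk3 (r = 0.933 to 0.953), and Tpm2, Eif5a2 and Fsd1l to Slc16a1 (r = 0.907 to 0.909). Clpb, Hgs and Fbxo4 were the nearest to Pdk2 (r = 0.843 to 0.864), though the rho of Clpb was only 0.566. Peg13, Ccdc88c and Shank3 were the nearest to Pdp1 (r = 0.862 to 0.892). Among the members themselves, Pdk1 ran with Slc16a1 (r = 0.675) and against Slc16a3 (r = -0.724) and Pdk3 (r = -0.559).

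The partners of these genes were then counted in the Glut1 transgenic populations, against a median log2 fold change of -0.01 over all genes, of which 8.42% were called higher and 8.33% lower (16.7% in all). Of the 6 genes of the pyruvate dehydrogenase complex, 1 was called, the phosphatase regulatory subunit Pdpr, a share equal to that of all genes. It was higher in Tnnt2low cells (61.5 ± 7.1 against 41.8 ± 9.5 CPM, SD, n = 4, log2 fold change 0.56, edgeR adjusted p = 0.0359). With the offset for length and GC content its log2 fold change was 0.49 and no longer called (adjusted p = 0.0950). The subunits Pdha1 and Dlat gave log2 fold changes of -0.03 and 0.01, and Pdhb gave -0.46 without passing (edgeR adjusted p = 0.0619).

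All 6 genes of pyruvate and lactate handling had negative fold changes in the main fit, and 3 were called lower in Tnnt2low cells, with a median of -0.50. Mpc2, a subunit of the mitochondrial pyruvate carrier, was 139 ± 21 against 297 ± 51 CPM (SD, n = 4, log2 fold change -1.09, edgeR adjusted p = 0.00337). Ldha and Ldhb, the muscle and heart forms of lactate dehydrogenase, were lower by 0.53 and 0.67 on the log2 scale (edgeR adjusted p = 0.00567 and 0.00593). With the offset, Mpc2 was -1.25 (adjusted p = 0.00823) and Ldha -0.41 (adjusted p = 0.0286), both still called. Ldhb was -0.19 (adjusted p = 0.281), and Pkm, which makes pyruvate, was called as well (-0.48, adjusted p = 0.0253). Mpc1 and Pcx did not pass, at -0.19 and -0.47. The sign of Mpc1 did not hold, since it was 0.21 with the offset and 0.16 with the replicate block.

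Bsg (basigin), the chaperone that brings Slc16a1 and Slc16a3 to the cell surface, was the only gene called of the 3 other carrier genes tested (Emb did not pass the filter), at 703 ± 25 against 1047 ± 55 CPM (SD, n = 4, log2 fold change -0.58, edgeR adjusted p = 0.00401). With the offset it was -0.19 (adjusted p = 0.211). In the branched-chain keto acid dehydrogenase system, which is regulated by its own kinase and phosphatase, 1 of 5 was called, the catalytic subunit Bckdha (-0.69, edgeR adjusted p = 0.0110; with the offset -0.33, adjusted p = 0.171). Bckdk, its kinase, was -0.28 (adjusted p = 0.178).

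Among 17 transcription regulators, 7 were called higher in Tnnt2low cells and 0 lower, with a median of 0.42. The 4 with the smallest p were Ppargc1b and Ppargc1a, coactivators of oxidative metabolism (0.66 and 0.38), and Foxo3 and Foxo1, activators of fasting genes (0.61 and 0.70), with edgeR adjusted p of 0.0109, 0.0217, 0.0211 and 0.0289. With the replicate block Ppara (0.77) and Esrrg (0.58) were called higher as well. With the offset 1 of the 17 was called, Ppargc1b (0.62, adjusted p = 0.0348). Of 18 PPAR target genes, 1 was higher (Cpt1a, a form of the enzyme at the gate of fatty acid entry to mitochondria, 0.63, edgeR adjusted p = 0.00615). Cpt1b, another form of that enzyme, was -0.49 and did not pass (edgeR adjusted p = 0.259). The 4 called lower were Fabp3 (-0.70), Slc25a20 (-0.44), Cd36 (-0.34) and Acadm (-0.36), which bind, carry, take up and oxidize fatty acids. With the offset Slc25a20 stayed lower (-0.50, adjusted p = 0.0195), and Cpt1a (0.35), Fabp3 (0.02), Cd36 (-0.09) and Acadm (-0.30) were no longer called, while Ucp2 (-0.55) and Hadha (-0.41) were called lower. With the replicate block Angptl4 was also lower (-0.77, adjusted p = 0.00646). Of 15 hypoxia target genes, 2 were higher (Vegfa 0.47 and Hk2 0.46) and 1 lower (Pgk1 -0.45), and with the offset 0 were called. With the replicate block Vegfa was no longer called, and Hk2 and Pgk1 were.

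Of 8 glucocorticoid and 8 FoxO target genes, 1 each was called, Mt1 and Trim63, both lower (-0.73 and -0.47), near the share of all genes. With the offset they were -0.15 and -0.27 and neither was called (adjusted p = 0.552 and 0.152), and with the replicate block the FoxO target Irs2 was called higher (1.05, adjusted p = 0.00364). Of 10 proliferation genes, 6 were higher and 0 lower, with a median of 1.30. Mki67 was 464 ± 223 against 121 ± 31 CPM (SD, n = 4, log2 fold change 1.94, edgeR adjusted p = 0.00337), and with the offset 3 of the 10 were called at a median of 1.23. Of 7 immediate early genes, 2 were higher, Fosb (1.97) and Atf3 (0.82). With the replicate block 5 of the 7 were higher, Fos, Jun (0.58) and Egr1 (0.81) as well. In WT, in both genotype comparisons and in the interaction, 0 genes of any of these lists were called. In WT, 5 of the 6 pyruvate and lactate genes had negative fold changes, with a median of -0.35, and Mpc2 was -0.66, Ldhb -0.35 and Pkm -0.27 on the log2 scale, none of which passed.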

How the data were processed

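RNA of the sorted cells was sequenced as single-end reads from an Illumina mRNA kit, and the labels' extract protocol, which names heart tissue, was set aside for the study's description of sorted cells. The files hold raw counts per gene as deposited by the authors, who checked reads with FastQC, mapped them with HISAT2 to mm10 and counted exons with HTSeq. For tool versions and the strand setting, the sources used here give nothing. Records that name no gene were 63.6% to 83.8% of each library and stayed out.

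Counts were scaled by TMM and tested with edgeR 4.0.16 in R 4.3.3 (filterByExpr, quasi-likelihood, all 12 libraries in 1 fit of 4 group means, Benjamini-Hochberg over 12252 genes, called at an adjusted p under 0.05). log2 CPM used a prior count of 2. Other settings used DESeq2 1.42.0, limma 3.58.1 and a loess offset for length and GC content (span 0.3). Lengths came from GENCODE vM21 (24046 genes matched, 98.46%) and promoters from RefSeq. The fits were tested on simulated data.

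The pairing comes from the labels, which name 1 heart for both populations. Deviations of same-heart libraries from the group means correlated at 0.107 to 0.271. All 8 members are named, and of each list the genes past the threshold, at most 4 per direction by smallest p, or else the 2 of highest CPM, with the 3 genes most correlated with each member of at least 10 CPM. Members and lists were chosen with earlier results of these data known, and genes outside the rule (Pkm, Mpc2 in WT, Pdhb, Dlat, Mpc1, Pcx, Bckdk, Cpt1b, Hist1h2bj and those called only with the offset or the replicate block) were named after their values were seen.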

Additional observations from a re-analysis of the deposited data

Results flagged for a closer look

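Pdk2 in Glut1 transgenic Tnnt2high replicate 1 measured 332 CPM, above the other 3 libraries of its group by 0.841 of the group's range, past Dixon's limit for 4 samples. It was 1 of 16 groups of 4 libraries checked (8 members in both Glut1 transgenic populations), and chance gives about 1 such value in 20 groups. No member passed the test of the interaction between population and genotype.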

How the results depend on the processing

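With 1 member called between the Glut1 transgenic populations (Pdk1), 0 were called without the filter on low counts, with the offset for length and GC content, with the replicate block together with that offset, or when a fold over 1.5 was also asked for. DESeq2, robust edgeR and a fit of only the libraries compared each called 2, Pdk1 and Pdk3. RLE size factors and the replicate block (the heart) each called 1, which was Pdk3 in place of Pdk1, and limma-voom called 1, Pdk1. Leaving out 1 library at a time gave 0 to 1 members and 1237 to 2127 genes in all, with the fewest without Glut1 transgenic Tnnt2high replicates 1 and 2 (1237 and 1267) and Tnnt2low replicates 1 and 2 (1249 and 1361). The count of all genes was 2052, 615 with the offset and 937 with the block and the offset. The sign of Pdk1 and of Pdk3 was the same in all 21 alternatives, with log2 fold changes of 0.13 to 0.41 and -0.48 to -0.17. In the other 4 comparisons every alternative that was run called 0 members. The replicate block was run for the WT populations and the interaction, and not for the genotype comparisons. The random block in limma was run for the genotype comparisons and the interaction. So was the fit without the 2 Glut1 transgenic hearts whose libraries held Y-linked reads. The correlation of Pdk4 between populations was 0.890 to 0.937 with RLE, a prior count of 1 or the offset, alternatives chosen after seeing the data. Depth limits Pdp2 and Slc16a3, which had as few as 21 reads in a library.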
